A study of Mus musculus with 147 samples.

Results

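Visceral endoderm-like cells were found among the cells collected at E6.5, E7.5 and E8.5 for a single-cell study of the mouse male germline. They were chosen by their own transcripts: a wild-type cell was taken when it held at least 500 CPM of Apoa1, the main protein of high-density lipoprotein, and at least 20 CPM of Cubn, which encodes the endocytic receptor cubilin. A value in CPM is the number of unique molecular identifiers (UMIs) of a gene per 1000000 UMIs of the cell. Of 1817 wild-type cells of these time-points with more than 2000 genes and 10000 to 1000000 UMIs, 400 passed this rule. That is 22.01% (95% Clopper-Pearson interval 20.1 to 23.99, counting error only). They are called Apoa1/Cubn cells, or members, below. Their other visceral endoderm markers Ttr, Amn and Dab2 were high, whereas hindgut transcripts were low or absent at E8.5, so a hindgut name was not given to them.

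The study followed male germ cells from the early embryo onward by a modified STRT-seq, a plate method in which the 3′ ends of transcripts are tagged with UMIs. Embryos came from C57BL/6 females mated with males homozygous for BVSC, a pair of reporter transgenes in which mVenus is driven by Prdm1 and ECFP by Dppa3. All cells used here were wild type beyond these reporters. The sex of the embryos is not given in the cell names. Cells were named by the authors for their time-point, genotype, sorting gate and biological replicate, and a pool is the cells of 1 time-point and replicate. The gates were called EPIrandom and FACSrandom at E6.5 and E7.5, and every E8.5 cell carried the gate BVSC, sorted for the reporters from whole digested embryos. The time-points and the gates therefore cannot be told apart between E7.5 and E8.5. Nothing in the labels says whether replicates came from separate litters, so the p-values measure the spread between pools only. All members of E7.5 replicate 4 and part of those of replicate 3 lay in 1 shared library, so these pools are not fully independent in the tests.

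Visceral endoderm is the absorptive epithelium that covers the egg cylinder. It takes up maternal proteins through cubilin, its partner amnionless (Amn) and megalin (Lrp2), with Dab2 as the adaptor of these receptors, and it secretes apolipoproteins and serum proteins much as the liver does later. A migrating group of its cells, the anterior visceral endoderm, makes antagonists of Nodal and Wnt such as Cer1, Lefty1 and Dkk1 and patterns the epiblast beside it. Part of the layer is later woven into the embryonic gut, and the rest lines the yolk sac.

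The Apoa1/Cubn cells were spread very unevenly over the pools. At E6.5 they were 130 of 731 cells (17.8%, interval 15.1 to 20.8), with 22.6% of 469 cells in replicate 1, 3 of 166 in replicate 2 and 21 of 96 in replicate 3. At E7.5 they were 184 of 895 (20.6%, 17.96 to 23.4), and replicates 1 to 4 gave 80 of 476, 6 of 277, 80 of 95 and 18 of 47. The E8.5 pools gave 86 of 191 (45.03%, 37.8 to 52.4). In replicate 1 of E8.5 all 48 cells were Apoa1/Cubn cells, against 6 of 95 in replicate 2 and 32 of 48 in replicate 3. Cells were picked and sorted by the authors, so these shares were not compared between time-points. By gate, 130 of 975 EPIrandom cells, 184 of 651 FACSrandom cells and 86 of 191 BVSC cells passed the rule. They lay in 18 of 21 libraries, and the libraries used the same 96 cell barcodes with no identical columns of counts.

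The cells were deeply sequenced, with a median of 291699 UMIs and 8979 genes per Apoa1/Cubn cell. The median was 273052 UMIs at E6.5, 269055 at E7.5 and 463565 at E8.5, and it was 80049 in E8.5 replicate 2. Mitochondrial transcripts took a median of 1.03% to 1.69% of UMIs in the pools. Pools of at least 5 Apoa1/Cubn cells, 9 in all, were tested between time-points. Their summed UMIs ran from 880813 in E8.5 replicate 2 to 27499252 in E6.5 replicate 1. E6.5 replicate 2, with 3 such cells, is given by its values only.

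Visceral endoderm transcripts were also found in the remaining cells of the same libraries, at levels that were higher where the library held more Apoa1/Cubn cells. In the 3 libraries without any such cell, the median Apoa1 level of the other cells was 0 to 4.22 CPM. It was 27.6 to 86.05 CPM in 5 libraries with up to 10% of them, and 93.5 to 372 CPM in 9 libraries with 10% to 50%. In 3 libraries with more than 50% and with other cells left, it was 433 to 1189 CPM. The rule itself bounds these values, since a cell with enough Cubn leaves the other cells at 500 CPM of Apoa1. In the library of 1189 CPM, 44 of 48 cells passed, and the few others had little Cubn (median 9.70 CPM). Ttr, which the rule did not use, behaved alike, with medians of 0 to 2.04, 15.1 to 84.7, 48.2 to 308 and 370.5 to 876 CPM. Whether these transcripts came from the cells themselves or from free RNA was not tested. In the 3 libraries of high Apoa1 background, which were both libraries of E7.5 replicate 3 (1 of them shared with replicate 4) and that of E8.5 replicate 3, the threshold lay near or below the level of the other cells. Without these libraries, 270 of 1627 cells (16.6%) were Apoa1/Cubn cells, with 86 of 753 at E7.5 and 54 left at E8.5.

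**Figure D1:**
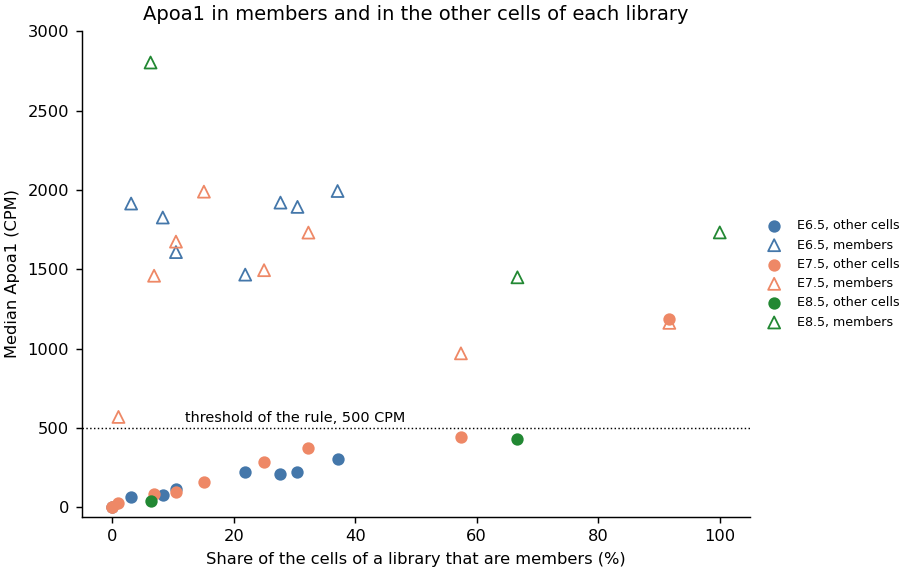
Median Apoa1 level (CPM) of the Apoa1/Cubn cells (open triangles) and of the other cells (filled circles) of each library, against the percentage of the library's cells that passed the rule; colours mark the time-points and the dotted line the threshold of 500 CPM. The medians of the other cells ran from 0 CPM in a library without Apoa1/Cubn cells to 1189 CPM in the library in which 91.7% of cells were Apoa1/Cubn cells. In that library the few other cells had little Cubn (median 9.70 CPM).

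At the threshold, the cells changed gradually. The 25 Apoa1/Cubn cells with 500 to 600 CPM of Apoa1 had medians of 482 CPM of Ttr, 162 of Amn and 182 of Dab2. In 75 cells just below, with 400 to 500 CPM of Apoa1 and enough Cubn, the same medians were 364, 118.01 and 138.7 CPM. The nuclear receptor gene Hnf4a stood at 13.9 and 8.74 CPM in these 2 sets, but at 129.6 CPM in the 309 Apoa1/Cubn cells with 1000 CPM of Apoa1 or more. Dppa3, a germ cell gene and one of the sorted reporters, was at 145.95 and 91.5 CPM in the same 2 sets, but at 8.01 CPM in the cells with 1000 CPM of Apoa1 or more. The sets on both sides of the threshold thus had lower Hnf4a and more Dppa3 than the cells of high Apoa1. On the Cubn side, 7 Apoa1/Cubn cells had 20 to 30 CPM, with a median Apoa1 level of 689 CPM, and 6 cells with 10 to 20 CPM of Cubn had 962 CPM of Apoa1.

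Ttr, Amn and Dab2, which the rule did not use, were high in nearly all Apoa1/Cubn cells. Transthyretin (Ttr), a carrier of thyroxine and of retinol-binding protein, had a median of 1289 CPM over cells, with the 10th and 90th percentiles at 526 and 2244 CPM. Amn had a median of 580.4 CPM (212 to 1035) and Dab2 of 708 CPM (299 to 1254). The other cells had medians of 59.1, 19.5 and 35.95 CPM. In 386 of 400 Apoa1/Cubn cells, Ttr reached 200 CPM and both Amn and Dab2 reached 100 CPM. In the libraries of high Apoa1 background, the median levels of the other cells passed these levels too. They were 385, 110.9 and 109.9 CPM in the library shared by E7.5 replicates 3 and 4. The other library of E7.5 replicate 3 had 876, 255 and 317 CPM, and that of E8.5 replicate 3 had 370.5, 189.8 and 163 CPM. In these libraries the count does not set the Apoa1/Cubn cells apart from the rest. Apoa1 itself (chromosome 9, 46228580 to 46230466, mm10) had a median of 1621 CPM and Cubn (chromosome 2, 13276338 to 13491813) of 423 CPM, against 89.9 and 8.02 CPM in the other cells. These differences describe the cells chosen and were not tested.

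Markers of epiblast, germ cells and blood were uneven over the pools. Pou5f1, a gene of epiblast and germ cells, reached 100 CPM in 41 Apoa1/Cubn cells, of which 15 were in E7.5 replicate 3 and 10 among the 18 cells of E7.5 replicate 4. Dppa3 reached 100 CPM in 110 cells, 72 of them in E7.5 replicate 3 and 17 in E7.5 replicate 4. The embryonic globin gene Hbb-bh1 reached 100 CPM in 45 cells, 44 of which were in E7.5 replicate 3. The summed level of the blood list was 2162 CPM in E7.5 replicate 3, with 6 of 9 genes at 20 CPM or more, and 0 to 63.1 CPM in the other pools. The germ cell list summed to 626 CPM in E7.5 replicate 3, 1383 in E7.5 replicate 4, 628 in E8.5 replicate 2 and 362 in E8.5 replicate 3, and to 31.7 to 121.2 CPM elsewhere. The epiblast list summed to 157 to 1099 CPM. The part of these transcripts in the values below was tested only by leaving out cells or libraries where stated. The parietal endoderm list, with genes such as Sparc, Col4a1 and Col4a2, was more even. It summed to 866 to 1674 CPM, with at least 6 of 10 genes at 20 CPM or more in every pool. In the other cells of the same pools it summed to 309.6 to 1256 CPM.

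In E8.5 replicate 1, in which every cell passed the rule and carried the gate BVSC, the germ cell list summed to 31.7 CPM, the lowest of the 10 pools. Prdm1, which visceral endoderm also expresses, was at 35.5 CPM in that pool, 22.7 in replicate 2 and 30.6 in replicate 3.

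The 20 most abundant transcripts of the Apoa1/Cubn cells included those of secreted proteins and of ferritin beside widely expressed genes such as Actb, Malat1 and Eef1a1. Summed over the 400 cells, Spink1, a trypsin inhibitor, stood at 1895 CPM and the lipid carrier Apoe at 1892 CPM, against 297 and 432 CPM in the other cells of the same time-points. Apoa1 was at 1570 CPM, the ferritin genes Fth1 and Ftl1 were at 1497 and 1494 CPM, and Ttr was at 1290 CPM. Car4, a membrane-bound carbonic anhydrase, was at 1142 CPM. The retinol-binding protein Rbp4 was also among the 20 genes of the highest level. In this assay each molecule gives 1 UMI at its 3′ end, so these levels are not divided by transcript length.

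The largest ratios of the Apoa1/Cubn cells to the other cells were those of genes known from liver and gut epithelium. Apoa4, an apolipoprotein of absorptive cells, had 216 CPM against 2.41 CPM in the other cells, a ratio of 63.6 after 1 CPM was added to both. Fgb, the beta chain of fibrinogen, had 221 against 3.57 CPM (ratio 48.6), and Fga (36.7) and Fgg (31.7), which encode the remaining chains, were also among the 20 largest ratios. These included Creb3l3, a transcription factor of hepatocytes and enterocytes (118.1 against 1.82 CPM), the glucose transporter Slc2a2 (161 against 2.90 CPM) and the galectin Lgals2 (236 against 4.71 CPM). Gjb1, the connexin of hepatocyte gap junctions, had 54.1 against 0.419 CPM. Hnf4a was the transcription factor with the most counts among them, at 126.4 against 3.13 CPM. A few other entries were the tight junction gene Cldn2, the mucin Muc13, the fatty acid-binding protein Fabp2, the amino acid transporter Slc7a9 and the bilirubin exporter Abcc2. Since the cells were chosen by Apoa1 and Cubn, the ratios are descriptions.

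Fibrinogen and apolipoprotein genes lie in clusters. Fgg, Fga and Fgb lie on chromosome 3 between 83007724 and 83049863, and Apoa1, Apoc3 and Apoa4 on chromosome 9 between 46228580 and 46243459 (GENCODE M21 on mm10). All 6 were detected in these cells at E6.5, E7.5 and E8.5.

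The promoters of the genes with the largest ratios were searched for short motifs of liver factors. RefSeq held 26 promoters for 18 of the 20 genes, and 250 bases before each start were read on both strands. The HNF1 half-site GTTAAT, which reads as ATTAAC from the opposite strand, was found in 6 of them (23.1%), those of Hnf4a, Fga, Fgb, Lgals2, Muc13 and Gjb1, against 6.43% of all 32851 promoters. The HNF4 motif AAAGTCCA was found in 2 (7.69%, all promoters 1.01%) and the GATA motif AGATAA in 4 (15.4%, all promoters 9.99%). The FOXA motif TGTTTAC was found in none, against 3.17% of all. These shares are descriptions of letters, and the search does not show binding. The promoters of 4 of these genes are shown because they hold the HNF1 half-site, which is in capitals, as is AGATAA in Lgals2. Each is the 150 bases before the RefSeq start (GRCm38.p6), printed along the gene's strand: Fgb at chr3:83049864-83050013 (minus strand), Lgals2 at chr15:78855530-78855679 (minus), Gjb1 at chrX:101377085-101377234 (plus) and Hnf4a at chr2:163547005-163547154 (plus).
Fgb: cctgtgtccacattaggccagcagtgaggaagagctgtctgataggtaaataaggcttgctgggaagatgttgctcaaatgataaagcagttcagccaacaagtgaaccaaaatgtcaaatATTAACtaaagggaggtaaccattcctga
Lgals2: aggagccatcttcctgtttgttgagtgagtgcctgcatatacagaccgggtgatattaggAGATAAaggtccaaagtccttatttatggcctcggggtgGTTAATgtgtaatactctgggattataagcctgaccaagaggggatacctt
Gjb1: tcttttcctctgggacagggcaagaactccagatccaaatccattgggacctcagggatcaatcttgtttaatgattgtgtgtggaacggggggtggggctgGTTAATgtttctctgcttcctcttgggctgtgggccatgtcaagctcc
Hnf4a: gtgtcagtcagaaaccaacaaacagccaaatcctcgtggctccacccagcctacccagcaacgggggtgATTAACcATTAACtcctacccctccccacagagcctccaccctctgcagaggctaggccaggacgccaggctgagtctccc

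Individual Apoa1/Cubn cells differed in transcripts of the anterior visceral endoderm and in those of absorptive and liver-type epithelium. Otx2, a homeobox gene of the anterior visceral endoderm and epiblast, and Slc2a2, which encodes the glucose transporter GLUT2, were taken to show this, a pair chosen after their values were seen. Each of 389 Apoa1/Cubn cells was thinned to 50000 UMIs, so that 20 CPM is 1 UMI, which is the lowest level that could be seen. Otx2 alone was seen in 27.8% of them, Slc2a2 alone in 45.5% (177 cells), both in 62 cells and neither in 42. At E6.5 these numbers were 45, 41, 24 and 13, and at E7.5 63, 58, 36 and 25. At E8.5, Slc2a2 alone was seen in 78 of 84 cells, Otx2 alone in 0, both in 2 and neither in 4. Without the high-background libraries, the E7.5 numbers were 5, 50, 9 and 22, and Slc2a2 alone was seen in 50 of 52 cells at E8.5.

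Most E7.5 cells of either kind came from different pools. In E7.5 replicate 1, 50 of 80 thinned cells had Slc2a2 alone and 3 had Otx2 alone. In E7.5 replicate 3, 3 had Slc2a2 alone and 52 of 78 had Otx2 alone. In the 100 thinned cells of E6.5 replicate 1, the Spearman correlation across cells was 0.71 for Cer1 with the Wnt antagonist Sfrp5. It was -0.63 for Cer1 with Slc2a2, -0.70 for Sfrp5 with Slc2a2 and -0.50 for Otx2 with Slc2a2. In the 20 cells of E6.5 replicate 3 these 4 coefficients were 0.42, -0.52, -0.38 and -0.24. They were 0.088, -0.19, -0.16 and -0.0097 in E7.5 replicate 1, and 0.51, 0.066, 0.11 and 0.042 in E7.5 replicate 3. The negative coefficients of E6.5 were thus nearer 0, or above it, in both E7.5 pools. These cells share libraries and a fixed depth, and the coefficients are given as descriptions.

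**Figure D2:**
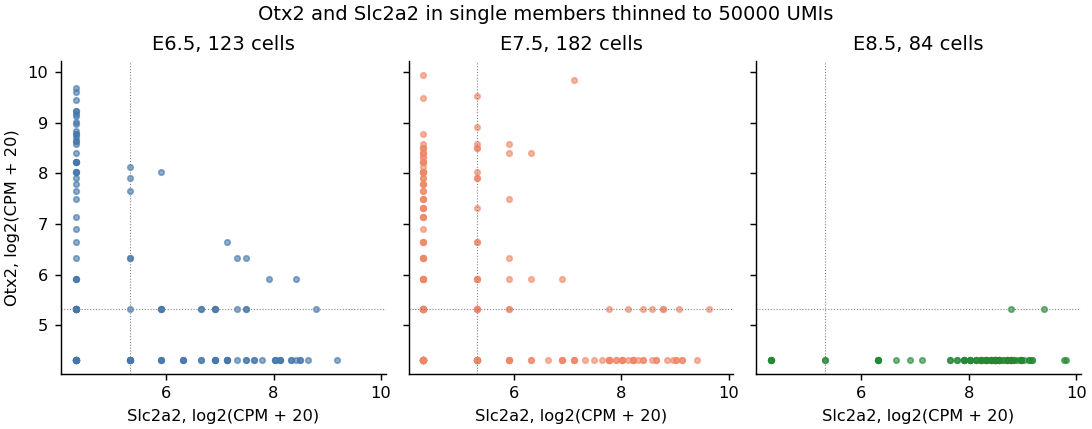
Otx2 (vertical) against Slc2a2 (horizontal) in single Apoa1/Cubn cells thinned to 50000 UMIs, both as log2(CPM + 20), 1 panel per time-point, 389 cells in all, 182 of them at E7.5 and 84 at E8.5; dotted lines mark 20 CPM, the level of 1 UMI. Cells with Otx2 alone were present at E6.5 (45) and E7.5 (63) and absent at E8.5, where 78 cells had Slc2a2 alone.

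Between E6.5 and E7.5, no gene passed the test. Of 15418 genes tested, edgeR's quasi-likelihood test called 0 (0%), 2 pools against 4, with 973 at an unadjusted p under 0.05. DESeq2 called 95 and limma-trend 1. The pools did not overlap for 2229 genes (14.5%). In simulated counts for this comparison 76.7% of genes changed 4-fold and 14.3% of those changed 2-fold were recovered, so changes of about 2-fold were mostly not detectable. Only genes with a mean of at least 20 CPM were changed in the simulation, so the recovery of genes of lower level was not measured.

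No secretory or endocytic gene passed edgeR's test between E6.5 and E7.5. The pools did not overlap for 2 of 12 serum genes, 1 of 8 endocytic genes and 4 of 16 lysosome genes, against 14.5% of all genes. Apoe was at 2120 and 2102 CPM in E6.5 replicates 1 and 3 and at 2013, 2171, 1634 and 1391 CPM in the 4 E7.5 pools. Amn was at 696 and 606 CPM, then at 600.4, 705, 409 and 410.4 CPM. The list of apolipoproteins and lipoprotein assembly had, beside Apoa1, a median log2 fold change of -0.35, with 1 of 9 genes above 0, against 0.05 for all genes. The lysosome list had -0.36 with 3 of 16 above 0, and the serum list -0.33. At an unadjusted p under 0.05 there were 0, 1 and 3 genes in these lists, and DESeq2 called none of them.

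Some genes had non-overlapping pools without passing the test, as did 14.5% of all genes tested, so a lack of overlap alone does not mark these genes out. Lefty1, an inhibitor of Nodal, was at 45.7 and 249 CPM in the fitted E6.5 pools and at 0.776, 0, 15.6 and 0.935 CPM at E7.5 (log2 fold change -5.00, adjusted p = 0.337). The E6.5 pools lay above all E7.5 pools. Wnt3, a ligand of the proximal egg cylinder, was at 85.2 and 28.5 CPM, then at 14.2, 4.20, 12.5 and 2.99 CPM (-2.79, adjusted p = 0.437). Mixl1, a homeobox gene of the primitive streak, was at 86.4 and 185 CPM, then at 29.96, 21.7, 28.1 and 2.81 CPM (-2.80, adjusted p = 0.437). The pools of Wnt3 and of Mixl1 did not overlap either. The transferrin receptor Tfrc was at 30.7 and 37.6 CPM at E6.5 and at 105.2, 70.7, 117.3 and 167 CPM at E7.5 (1.64, adjusted p = 0.480), also with no overlap.

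Hindgut genes as a list had a median log2 fold change of 3.60 at E7.5 over E6.5, with 8 of 8 above 0. All 8 had an unadjusted p under 0.05, DESeq2 called 3 and edgeR 0. Most of these genes were low outside E7.5 replicate 4, where 5 of 8 reached 20 CPM. Cdx1 and Cdx2, homeobox genes of the posterior embryo, were highest there, at 20.2 and 27.5 CPM. Nepn was at 96.7 and Tff3 at 22.6 CPM in that pool. In E7.5 replicate 1, Cdx1 was at 11.6 CPM, and Cdx2 also reached 20 CPM. The only gene of the list at 20 CPM or more in every E7.5 pool was Trh (chromosome 6, 92242061 to 92244650), which encodes thyrotropin-releasing hormone. It was at 51.02 and 215 CPM in E6.5 replicates 1 and 3 and at 326, 789, 698 and 501 CPM in the E7.5 pools. All E7.5 pools lay above both E6.5 pools, with a log2 fold change of 2.03 (adjusted p = 0.772).

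Between E7.5 and E8.5, 249 of 15418 genes (1.61%) passed edgeR's quasi-likelihood test at a false discovery rate of 0.05, 4 pools against 3. Of these, 90 rose (0.584%) and 159 fell (1.03%), and the median log2 fold change of all genes was -0.10. The pools of both time-points did not overlap for 2327 genes (15.1%), among them 244 of the 249. Of 8 genes of the anterior visceral endoderm 5 fell, as did 6 of 12 endoderm transcription factors, and 5 of 12 serum genes and the calcium-binding protein gene S100g rose. The split of rises and falls moved with the settings: 213 rose and 98 fell with Apoa1 at 200 CPM or more, 485 and 449 with no filter on low counts, and 9 and 76 with Apoa1 at 1000 CPM or more. The gates differed between these time-points, as given above, and their part in these changes cannot be told apart from that of time. The number of genes called depended on single pools. Of the genes tested, 0.291% were called without E8.5 replicate 1, 0.550% without E7.5 replicate 3, 0.710% without E7.5 replicate 2, 0.796% without E8.5 replicate 3 and 2.85% without E7.5 replicate 1. Without the 3 libraries of high Apoa1 background, 18 genes rose and 99 fell (0.848%), and 79 of these were among the 249.

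**Figure D3:**
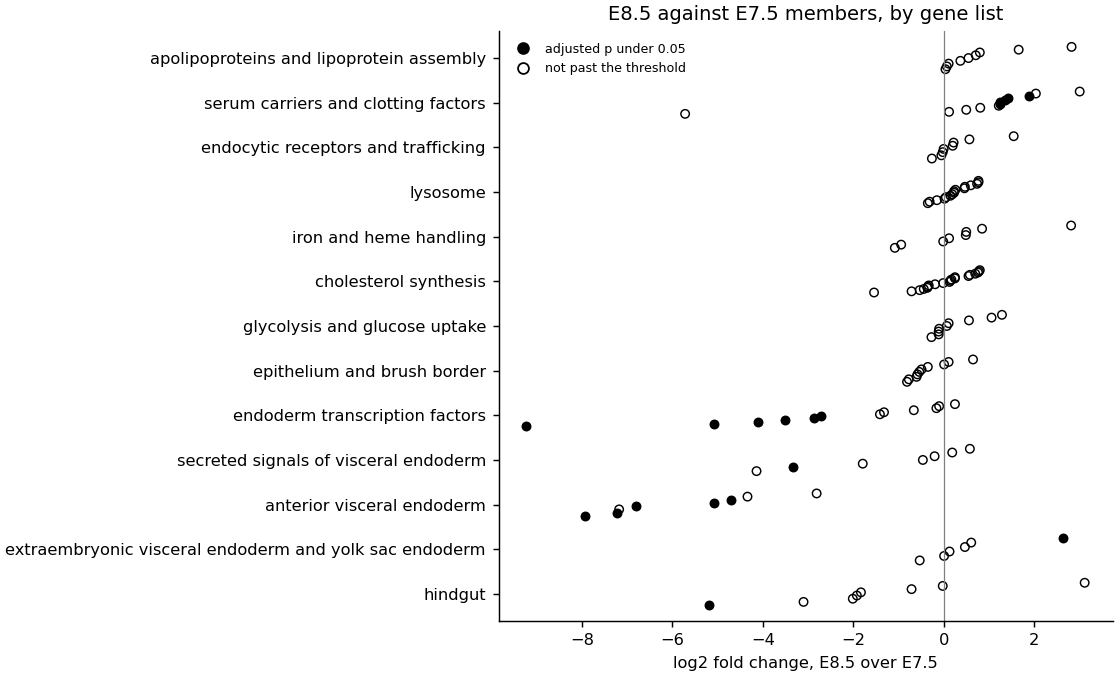
Log2 fold change of E8.5 over E7.5 in the Apoa1/Cubn cells for the genes of 13 lists, 1 point per gene and 1 row per list; filled points had an adjusted p under 0.05, and Apoa1 and Cubn, which chose the cells, are left out. The anterior visceral endoderm genes lie left of 0, with 5 of 8 filled, and the serum list lies mostly right of 0, with 5 of 12 filled.

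Among serum carriers and clotting factors, 5 of 12 genes rose and none fell. The list's median log2 fold change was 1.24, 11 genes were above 0, and the pools of 7 did not overlap. Of all genes tested, 0.584% rose, and the pools did not overlap for 15.1%. Their levels can follow Apoa1, by which the cells were chosen, so the list is not fully independent of the rule. The 5 that rose lost the test in some settings: none of the list was called without the 3 libraries of high background, without E7.5 replicate 3, among cells with Apoa1 at 1000 CPM or more or without FACSrandom cells. The list's medians were then 1.27, 1.20, 0.84 and 0.99. Without cells of Pou5f1 at 100 CPM or more, without E7.5 replicate 2 or with at least 10 members per pool 2 were called, 1 without E8.5 replicate 1 and 3 without E7.5 replicate 4 or E8.5 replicate 3.

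Rbp4 (chromosome 19, 38116629 to 38125281), the carrier of retinol, was at 1051, 936, 525 and 779 CPM at E7.5 and at 1799, 2510 and 1539 CPM at E8.5. The E8.5 pools were all higher (log2 fold change 1.24 ± 0.26, SE, adjusted p = 0.0263). Alpha-fetoprotein, Afp (chromosome 5, 90490737 to 90508907), the albumin-like protein of fetal serum, went from 472, 238, 267 and 309 CPM to 744, 1060 and 665 CPM (1.35 ± 0.26, adjusted p = 0.0149). The gene of the iron carrier transferrin, Trf (chromosome 9, 103204001 to 103230444), went from 162, 78.4, 109.1 and 153 CPM to 350.3, 243 and 319 CPM (1.24 ± 0.23, adjusted p = 0.0136). None of these groups overlapped.

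The 3 fibrinogen chains differed in their statistics. Fgg went from 131.1, 18.9, 48.8 and 97.1 CPM to 345, 205 and 303 CPM (1.89 ± 0.40, adjusted p = 0.0293). Fgb went from 225, 67.2, 62.6 and 151 CPM to 369, 341 and 321 CPM (1.42 ± 0.34, adjusted p = 0.0471). For Fga the values were 35.5, 0, 4.91 and 22.3 CPM, then 174, 74.9 and 157 CPM, and the change missed the threshold (3.01 ± 0.76, adjusted p = 0.0602). Of the E7.5 and E8.5 pools, E7.5 replicates 2 and 3 were the lowest and E8.5 replicate 1 the highest for all 3 chains. Ttr was at 1406, 1660, 955 and 1021 CPM and then at 1549, 2432 and 1388 CPM, with overlap (0.50, adjusted p = 0.363).

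Of the 9 apolipoprotein and lipoprotein assembly genes tested beside Apoa1, edgeR's test called 0 and DESeq2 called 1, and 5 had an unadjusted p under 0.05. All 9 log2 fold changes were above 0, with a median of 0.55. Apoa2, another protein of high-density lipoprotein, was at 222, 0.700, 62.3 and 179 CPM at E7.5 and 634, 1109 and 755 CPM at E8.5 (2.83 ± 0.75, adjusted p = 0.0704). The groups did not overlap, and E7.5 replicate 2 had almost none. Apoc3 was at 106.4, 18.2, 33.98 and 67.7 CPM, then at 248, 85.1 and 226 CPM (1.66, adjusted p = 0.0677). Apoe was at 1976, 2159 and 1612 CPM at E8.5, and its log2 fold change was 0.07. Apoa1 itself was at 1597, 1719, 1127 and 991 CPM at E7.5 and at 1711, 2615 and 1676 CPM at E8.5, with no test because it chose the cells.

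Of the 8 genes of the endocytic apparatus tested beside Cubn, edgeR and DESeq2 called 0, and 0 had an unadjusted p under 0.05. Amn was at 605, 543 and 458 CPM at E8.5 (log2 fold change -0.02, adjusted p = 0.981), within the range of E7.5. Dab2 was at 709, 846, 561 and 414 CPM at E7.5 and at 690.2, 966 and 584 CPM at E8.5 (0.22, adjusted p = 0.737). Lrp2, the megalin gene, varied more between pools of 1 time-point, at 130.4, 22.4, 7.62 and 53.5 CPM and then at 192, 105.6 and 189 CPM (1.55 ± 0.74, adjusted p = 0.298). No gene passed edgeR's test among 16 lysosome genes (median log2 fold change 0.23, 3 genes at an unadjusted p under 0.05), 8 genes of iron and heme handling (0.31, 3 genes), 20 of cholesterol synthesis (0.14, 3 genes), 9 of glycolysis (0.07, 1 gene) and 10 of the epithelium (-0.52, 4 genes). DESeq2 called 0, 0, 1, 1 and 1 of them.

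**Figure D4:**
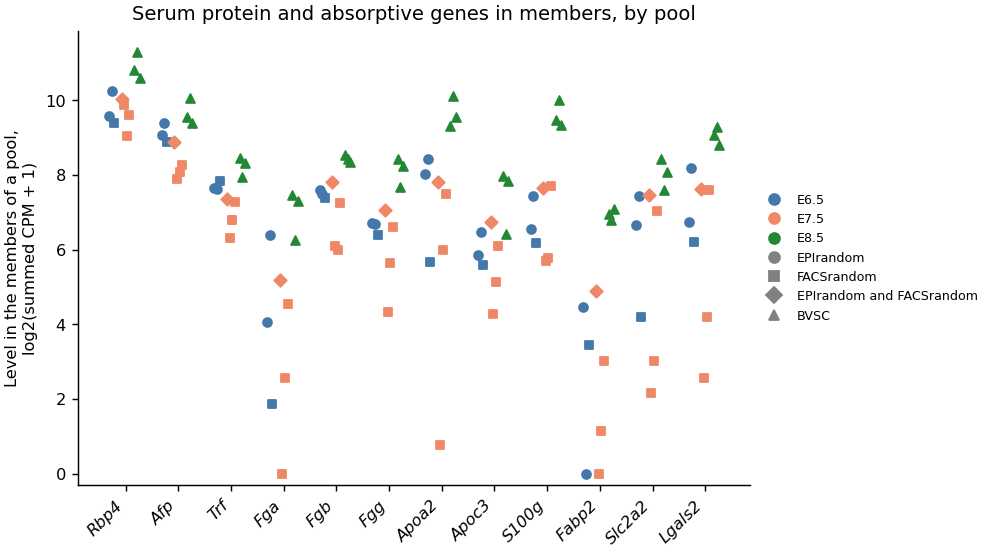
Summed level of 12 secretory and absorptive genes in the Apoa1/Cubn cells, 1 point per pool, as log2(CPM + 1) by time-point; the marker shape gives the gate, and E6.5 replicate 2, with 3 such cells, is drawn but was not fitted. The E8.5 pools of Rbp4, Afp, Trf and S100g lie above all E7.5 pools, and the E7.5 pools of Fga and Apoa2 spread from 0 to 35.5 and from 0.700 to 222 CPM.

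S100g (chromosome X, 162961992 to 162964599), the calcium-binding protein calbindin-D9k of absorptive epithelia, rose. It was at 92.5 and 70.9 CPM in the fitted E6.5 pools, at 200.2, 51.1, 54.2 and 209 CPM at E7.5 and at 714, 1034 and 644 CPM at E8.5 (log2 fold change 2.63 ± 0.42, adjusted p = 0.00673). Every E8.5 cell held it at 20 CPM or more. It was the only gene called of 6 on the list of extraembryonic and yolk sac endoderm, whose median was 0.30. Spink1 was at 2419, 2345, 1919 and 1241 CPM at E7.5 and 1358, 1746 and 1037 CPM at E8.5 (-0.53, adjusted p = 0.328). The X-linked homeobox gene Rhox5 was at 629, 798, 687 and 424 CPM and then at 625, 753 and 567 CPM (log2 fold change 0.01).

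The other named rises were of genes of varied function. Fabp2, the intestinal fatty acid-binding protein, went from 28.9, 0, 1.19 and 7.11 CPM to 122.1, 108.99 and 135.7 CPM (3.57 ± 0.81, adjusted p = 0.0357). Cdo1, cysteine dioxygenase, went from 47.2, 13.3, 8.91 and 26.7 CPM to 112.03, 118.1 and 123.6 CPM (2.25 ± 0.54, adjusted p = 0.0459). Hsd17b2, which oxidises estradiol and testosterone, went from 34.3, 39.2, 14.9 and 30.9 CPM to 116.4, 129.4 and 152 CPM (2.14 ± 0.34, adjusted p = 0.00738). The lamin gene Lmna rose by a log2 fold change of 1.97 ± 0.39 (adjusted p = 0.0190). Timd2, a receptor for ferritin, rose by 2.68 ± 0.64 (adjusted p = 0.0459). The remaining 6 of the 12 named rises beside S100g were Rab30, Cgref1, Nudt11, Smim1, Mcrip2 and 2200002D01Rik, between 1.99 and 2.33 on the log2 scale. Slc2a2 and Lgals2 were high in all E8.5 pools but did not pass the test. Slc2a2 was at 176, 3.50, 7.12 and 129.99 CPM and then at 339.9, 191 and 270.1 CPM (1.71, adjusted p = 0.303), and Lgals2 at 197, 4.90, 17.4 and 191 CPM and then at 534, 622 and 445 CPM (2.37, adjusted p = 0.0999).

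Beside the 1.03% of all genes that fell, the anterior visceral endoderm list fell with 5 of 8 genes past the test, 0 above 0 and a median of -5.94. The same number was called without the high-background libraries, without E7.5 replicate 3 and among cells with Apoa1 at 1000 CPM or more, and 2 were called without FACSrandom cells. With at least 10 members per pool 1 was called (median -5.90). Cer1 (chromosome 4, 82881751 to 82885148), a secreted antagonist of Nodal and BMP, was at 126.6 and 543 CPM in the fitted E6.5 pools and at 50.3, 409, 454 and 87.5 CPM at E7.5. At E8.5 it was at 0, 0 and 2.50 CPM (-7.94 ± 1.19, adjusted p = 0.00535). It was at 20 CPM or more in 72 of 130 cells at E6.5, 140 of 184 at E7.5 and 1 of 86 at E8.5. A count of 0 allows up to 0.131 CPM in E8.5 replicate 1 and 3.41 CPM in replicate 2, from 3 counts per pool. Other cells of E7.5 replicate 3 held 438 CPM of Cer1, close to its Apoa1/Cubn cells, and those of E8.5 held 0 and 1.09 CPM.

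Dkk1 (chromosome 19, 30545863 to 30549665), a secreted Wnt antagonist, was at 115.1, 418, 489 and 163 CPM at E7.5 and at 8.504, 1.14 and 20.6 CPM at E8.5 (-4.71 ± 0.62, adjusted p = 0.00221). Hhex (chromosome 19, 37434810 to 37440731), a homeobox gene of anterior endoderm and of the liver bud, went from 21.6, 105.04, 175 and 49.8 CPM to 3.97, 0 and 2.19 CPM (-5.08 ± 0.79, adjusted p = 0.00668). Shisa2 and Hesx1 also fell, by 7.22 ± 1.10 (adjusted p = 0.00591) and by 6.80 ± 1.41 (adjusted p = 0.0246) on the log2 scale. Hesx1, a homeobox repressor of the forebrain and anterior endoderm, had its E7.5 level mostly from replicate 3, at 132.8 CPM, with 0.700 to 15.3 CPM in the other pools. Sfrp5 missed the threshold, at 10.9, 210.1, 316 and 46.4 CPM and then at 1.18, 0 and 17.6 CPM (-4.34, adjusted p = 0.0548), as did Gsc (-7.18, adjusted p = 0.0558). Lefty1 was already near 0 at E7.5 in 3 of 4 pools and was at 1.00, 0 and 0.563 CPM at E8.5. In summed level the list stood at 621 and 2040 CPM in E6.5 replicates 1 and 3, at 214, 1216, 1778 and 388 CPM at E7.5 and at 15.8, 1.14 and 44.1 CPM at E8.5. The E7.5 pools differed widely among themselves, and all of them lay above those of E8.5. In the other cells of E7.5 replicates 1 to 4 the list stood at 241, 122.4, 1677 and 293 CPM. That was near the Apoa1/Cubn cells in replicates 1, 3 and 4. In the other cells of E8.5 replicates 2 and 3 it was at 15.01 and 20.99 CPM. The lower level at E8.5 was thus also seen outside the Apoa1/Cubn cells, and whether it is their own was not tested.

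Of 12 endoderm transcription factors 6 fell, against 1.03% of all genes tested, with a median of -2.06. Summed, the list was at 802, 1258, 1916 and 697 CPM at E7.5 and at 515, 472 and 463 CPM at E8.5. In the other cells of the same pools it was at 306, 283, 2173 and 499.8 CPM at E7.5. In those of E8.5 replicates 2 and 3 it was at 182 and 181 CPM. Without the high-background libraries 5 were called, without E7.5 replicate 2, E8.5 replicate 1 or E8.5 replicate 2 it was 3, and without E7.5 replicate 3 or E8.5 replicate 3 it was 4. With at least 10 members per pool, or without FACSrandom cells, 2 were called (medians -1.93 and -1.61). Otx2 (chromosome 14, 48657677 to 48673819) was at 10.8, 81.9, 192 and 23.2 CPM at E7.5 and at 0.0436, 0 and 0.250 CPM at E8.5. That was 4640 UMIs against 5, and the fitted log2 fold change of -9.23 ± 1.23 (adjusted p = 0.00221) depends at such counts on the prior count of the fit. Sox17 (chromosome 1, 4490931 to 4497354), an early regulator of endoderm, went from 198, 233, 363 and 143.5 CPM to 43.8, 21.6 and 31.99 CPM (-2.86 ± 0.34, adjusted p = 0.00200). Eomes, a T-box factor that visceral endoderm and streak share, went from 15.4, 98.04, 177 and 17.02 CPM to 4.97, 0 and 6.39 CPM (-4.10 ± 0.82, adjusted p = 0.0209). Lhx1 went from 36.4, 201, 298 and 31.98 CPM to 15.4, 9.08 and 12.9 CPM (-3.51 ± 0.69, adjusted p = 0.0174). Foxa1, a pioneer factor of gut and liver, went from 25.1, 28.01, 58.6 and 29.9 CPM to 3.88, 1.14 and 10.4 CPM (-2.71 ± 0.59, adjusted p = 0.0317). Hhex is the sixth. None of these groups overlapped.

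For Hnf4a and Gata4 the pools of both time-points overlapped. Hnf4a (chromosome 2, 163506808 to 163572910), whose promoter is printed above, was at 138.9, 100.1, 110.1 and 69.2 CPM at E7.5 and at 134.3, 119.2 and 128.8 CPM at E8.5 (0.25, adjusted p = 0.707). Gata4 was at 116.7, 91.04, 141.98 and 95.2 CPM and then at 111.8, 111.3 and 83.2 CPM (-0.16, adjusted p = 0.804). Neither gene passed the test. Gata6, Foxa2 and Prdm1 missed the threshold with -1.32 (adjusted p = 0.322), -0.66 (adjusted p = 0.472) and -1.41 (adjusted p = 0.107).

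Of 7 secreted signals, Bmp2 fell. It was at 83.4, 284, 165 and 56.7 CPM at E7.5 and at 9.51, 23.8 and 15.6 CPM at E8.5 (-3.34 ± 0.55, adjusted p = 0.00843). Ihh, the hedgehog ligand of visceral endoderm, was at 36.2, 44.1, 13.6 and 76.3 CPM and then at 90.1, 36.3 and 67.2 CPM (0.58), with overlap. Nodal was at 9.99, 4.90, 103.4 and 19.8 CPM and then at 4.36, 0 and 0.250 CPM (-4.14, adjusted p = 0.0641).

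**Figure D5:**
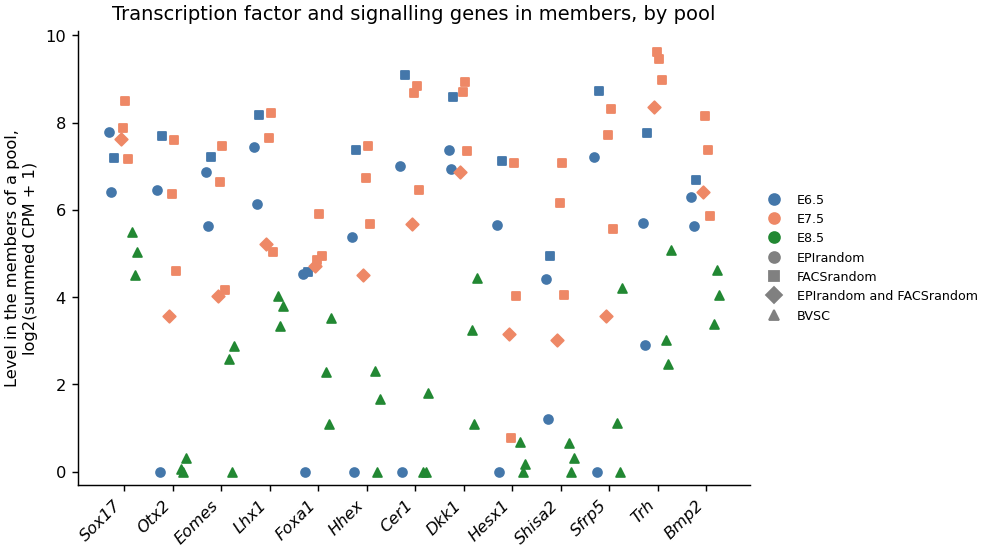
Summed level of 13 patterning genes in the Apoa1/Cubn cells, 1 point per pool, as log2(CPM + 1) by time-point; marker shapes give the gate, and E6.5 replicate 2, with 3 such cells, was not fitted. The E8.5 pools of Sox17, Otx2, Cer1, Dkk1, Hhex, Trh and Bmp2 lie below all E7.5 pools, and Otx2 at E7.5 runs from 10.8 to 192 CPM.

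The genes of the largest falls included some of the epiblast. Fgf5, a growth factor of the epiblast, was at 5.24, 72.8, 293 and 56.9 CPM at E7.5 and at 0, 0 and 0.751 CPM at E8.5 (-8.46 ± 1.40, adjusted p = 0.00870). In the other cells of the same E7.5 pools it was at 6.34, 11.8, 351 and 50.1 CPM, near the Apoa1/Cubn cells in replicates 1, 3 and 4. Sfrp1, a Wnt antagonist, went from 41.6, 426, 549 and 81.5 CPM to 2.40, 2.27 and 3.13 CPM (-6.76 ± 0.90, adjusted p = 0.00221). Sp5, a target gene of Wnt signalling, went from 70.4, 175, 206 and 59.3 CPM to 3.36, 0 and 4.95 CPM (-5.24 ± 0.60, adjusted p = 0.00200). Dkk1, Otx2, Sfrp1, Sox17 and Trh were past the threshold in all 25 alternative settings. Irs4, Dapk2, Fgfbp1 and Nptx2 completed the 12 named falls together with Otx2, Cer1, Hesx1, Trh and Hhex, at -7.30 to -5.05 on the log2 scale. On the epiblast list 2 of 8 genes fell, Fgf5 and the methyltransferase gene Dnmt3b (-1.54, adjusted p = 0.0240). On the streak list 2 of 8 fell, Mixl1 (-3.61, adjusted p = 0.0330) and Fgf8 (-2.94, adjusted p = 0.0355), and on the blood list 1 of 8, Gata1 (-9.27, adjusted p = 0.00535). The epiblast and blood lists were also those of other cells in E7.5 replicate 3, as given above, and what these cells add to the falls was tested only by leaving out libraries and cells.

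At E8.5 the Apoa1/Cubn cells did not carry a hindgut signature. Cdx1 was at 0.174, 1.14 and 2.25 CPM in the 3 pools, Cdx4 at 2.49, 1.14 and 9.52, and the hedgehog ligand Shh of gut endoderm at 0, 0 and 2.13 CPM. The other cells of replicates 2 and 3 held more, with 17.8 and 24.6 CPM of Cdx1 and 6.72 and 52.7 CPM of Cdx4. Cdx2 was at 22.7, 10.2 and 16.6 CPM, against 47.6 and 54.5 CPM in the other cells. By cells, 1 of 86 Apoa1/Cubn cells held Cdx1 at 20 CPM or more, 2 held Cdx4, 1 held Shh, 7 held the hindgut gene Nepn and 26 (30.2%) held Cdx2. Tff3, a trefoil peptide of mucous epithelia, was the exception. It was at 54.3, 76.1 and 41.4 CPM, against 2.52, 0, 1.19 and 22.6 CPM at E7.5 (3.12, adjusted p = 0.0913), and 39 of 86 cells (45.3%) held it at 20 CPM or more, with 0.175 and 4.83 CPM in the other cells.

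Trh fell, the only gene of 8 on the hindgut list to pass the test. From the E7.5 values given above it went to 7.06, 4.54 and 32.9 CPM (-5.20 ± 0.63, adjusted p = 0.00200). The other cells of these pools held 51.1 and 79.5 CPM at E8.5, more than the Apoa1/Cubn cells of the same replicates. At E7.5, 98.9% of Apoa1/Cubn cells held it at 20 CPM or more, against 58.5% at E6.5 and 17.4% at E8.5. The whole hindgut list summed to 395, 820.0, 730.3 and 705 CPM in the Apoa1/Cubn cells of E7.5 replicates 1 to 4. In the other cells of these pools it summed to 368, 282, 849 and 717 CPM. The E7.5 level of this list was thus not particular to the Apoa1/Cubn cells in replicates 1, 3 and 4.

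Within E7.5 replicate 1, which held cells of both gates, the Apoa1/Cubn cells of the gates EPIrandom and FACSrandom gave near values for most of these genes. Cer1 was at 53.9 and 49.1 CPM, Dkk1 at 141.7 and 106.01, Trh at 359 and 315, S100g at 184 and 206 and Rbp4 at 876 and 1110 CPM. Otx2 was at 16.8 and 8.70 CPM. No pool held BVSC cells beside another gate, so the gate of E8.5 has no such comparison.

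Sex-linked transcripts were seen in nearly all Apoa1/Cubn cells, and 26.2% of the 400 cells held both kinds. Xist, the RNA of the inactive X, alone reached 20 CPM in 26% of cells, and the sum of 4 Y-linked genes alone in 43.8% (175 cells), with neither in 16 cells. Xist alone was seen in 71 of 130 cells at E6.5, 22 of 184 at E7.5 and 11 of 86 at E8.5. Without the high-background libraries, Xist alone was seen in 34.4% of 270 cells, the Y-linked genes alone in 41.1%, both in 20.4% and neither in 4.07%. At 50 CPM, Xist alone was seen in 28.5% of cells, the Y-linked genes alone in 196 cells, both in 42 and neither in 48. Cells with both kinds were not assigned a sex.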

How the data were processed

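Single cells were sequenced by a modified STRT-seq. Per the labels and the methods, the authors used UMI-tools to read barcodes and UMIs, seqtk for trimming, STAR for alignment to mm10 and featureCounts (Subread) for assignment to genes. The submitters' processing notes also name CASAVA 1.8. The deposited table holds raw UMI counts, 1 column per cell, for 31053 genes and 13032 cells of 147 libraries. Its values were checked to be whole, and the sums of the 1864 wild-type cells of E6.5 to E8.5 equalled the transcript numbers in the authors' table of cells, from which time-point, genotype, gate and replicate were taken. Other columns of cells, 11168, were not used. No caller of doublets was run. The filter on genes and UMIs was that of the methods.

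The members and the 25 gene lists (210 genes) were chosen with earlier results of these data known. Counts were summed over the members of each pool, pools of at least 5 members entered, and edgeR 4.0.16 (TMM, filterByExpr, quasi-likelihood test, R 4.3.3) was fitted on 9 pools over all genes, with Benjamini-Hochberg adjustment at 0.05. The SE is the log2 fold change divided by the root of the F statistic. Pools of E6.5, E7.5 and E8.5 shared 1 fit. Named were the members of the lists, the 20 genes of the highest level, the 20 of the largest ratio with at least 50 CPM, and the 12 largest rises and falls past the threshold whose pools did not overlap and whose mean log2 CPM was at least 5. Apoa1 and Cubn were left out of list counts between time-points.

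Same-numbered pools were not taken as pairs: the correlations of their deviations from the time-point means were 0.039 to 0.203, not all above 0.1. With so few pools per time-point these correlations cannot show whether the pools are paired. Alternatives were DESeq2 1.42.0, its size factors, limma-trend 3.58.1, no filter, other thresholds of membership and leaving out pools, libraries or cells. On simulated counts, the test of E8.5 against E7.5 recovered 73 of 93 genes changed 4-fold and 13 of 107 changed 2-fold, with 7 false calls among 15320 genes, and that of E7.5 against E6.5 gave 6 false calls among 15317 genes. The genes changed in both simulations had a mean of at least 20 CPM. Gene positions are those of GENCODE M21, another release than the authors used. Python 3.11.15, NumPy 2.4.6, SciPy 1.17.1 and pandas 2.3.3 were used. A few items are not reported here.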

Additional observations from a re-analysis of the deposited data

Results flagged for a closer look

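For 7 of the lists and named genes, the highest or lowest of the 4 E7.5 pools lay far from the others by Dixon's test of the gap over the range. They were 6.60% of the values examined, and chance flags about 1 in 20. E7.5 replicate 3 stood apart in 5 of them. Its blood list summed to 2162 CPM, against 12.6 to 30.9 CPM in the other pools, and its Gata1, a transcription factor of red blood cells, was at 48.8 CPM, against 7.11 to 12.6. Hesx1 was at 132.8 CPM (others 0.700 to 15.3), Foxa1 at 58.6 CPM (others 25.1 to 29.9) and Fgf8 at 95.01 CPM (others 25.4 to 27.3). The globin transcripts lay in the library in which 91.7% of cells were Apoa1/Cubn cells. Without it, 257 genes were called between E8.5 and E7.5, 241 of them shared with the 249. The remaining flags were in other pools of E7.5: the sex-linked list summed to 142.9 CPM in replicate 2, against 212 to 219.6 CPM, and Hsp90ab1, a heat shock protein gene, was at 1123 CPM in replicate 4, against 1167 to 1175 CPM.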

How the results depend on the processing

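Values are percentages of the genes tested. Between E7.5 and E6.5, where 0% were called, 0.617% were called with no filter on low counts, 0.616% by DESeq2, 0.00649% by limma-trend, 0.0870% without the libraries of high Apoa1 background and 0.0319% without FACSrandom cells, and leaving out 1 pool gave 0% to 0.0209% (the highest without E7.5 replicate 3). Between E8.5 and E7.5, 1.61% (249 genes) became 4.17% with no filter, 6.54% with DESeq2, 0.748% with pools of at least 3 members, 0.934% with at least 10, 0.599% with Apoa1 at 1000 CPM or more, 1.04% without members of more than 600000 UMIs, 0.848% without the high-background libraries and 0.185% without FACSrandom cells. Leaving out 1 pool gave 0.291% to 2.85%. With a replicate block the values were 0% and 3.02%. The same-numbered correlations were all above 0 but some were under 0.1, so whether the numbers pair the pools was not settled. The cause of these differences was not tested. Lone pools of E6.5, and of E7.5 without FACSrandom cells, were assumed to vary like the other groups. Settings that leave out libraries, cells of high Pou5f1 or a gate were added after seeing the data. The remaining settings kept the count within 1.5 times.

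None of the genes called between E8.5 and E7.5 that were followed through the settings changed direction. Of 25 settings, Fgb lost the call in 15, Cdo1 in 15, Timd2 in 14, Mixl1 in 12, Foxa1 in 12, Fgf8 in 11, Rbp4 in 9, Fgg in 8, Eomes and Lhx1 in 7, Afp and Trf in 6, S100g and Bmp2 in 3, Hhex in 2 and Cer1 in 1. Of 24, Fabp2 lost it in 13 and Hesx1 in 8. With Apoa1 at 200 CPM or more, 702 cells would be members. Cells with Xist alone were 62 at 10 CPM. Changes of 2-fold were mostly below what 9 pools could show.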

Other observations

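Other lists were measured in the Apoa1/Cubn cells between E7.5 and E8.5. Of 6 imprinted growth genes, 0 passed edgeR's test and 1 DESeq2, with a median log2 fold change of -0.13 and 3 genes at an unadjusted p under 0.05. Of 6 genes of dissociation stress, 0 passed either, with a median of -0.61 and 2 genes at an unadjusted p under 0.05. The immediate early gene Fos was at 7.89 and 173 CPM in E6.5 replicates 1 and 3, at 146.6, 558, 238 and 135.6 CPM at E7.5 and at 83.9, 22.7 and 169 CPM at E8.5. Of 10 parietal endoderm genes, Lamc1, a laminin chain, fell (-1.43, adjusted p = 0.0357 by edgeR), and it lost the call in 14 of 25 settings. The 7 germ cell genes had a median of -1.15 with 0 called by edgeR or DESeq2 and 0 at an unadjusted p under 0.05. Of 6 genes of extraembryonic ectoderm, 4 of the foregut and 2 of the endothelium, edgeR and DESeq2 called 0, and 0, 0 and 1 had an unadjusted p under 0.05. The 5 sex-linked genes had 0 calls by either tool and 0 at an unadjusted p under 0.05.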
